A study of Homo sapiens with 114 samples.

Results

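The genes described here encode the protein partners of the immunosuppressants that bind cyclophilins and FK506-binding proteins, together with RCAN1, a transcript used as a readout of calcineurin signalling. The 10 genes are the cyclophilins PPIA and PPIF, the FK506-binding proteins FKBP1A and FKBP5, the calcineurin subunits PPP3CA, PPP3CB and PPP3R1, the calcineurin regulator RCAN1, and MTOR with its partner RPTOR. They were chosen by symbol, with earlier results of these data known. All 10 were found among the 19775 genes of the array table and tested in all 26 comparisons of treated with control cultures.

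The cells were HK-2, an immortalized line of human renal proximal tubular epithelium, measured on Affymetrix arrays in 38 groups of 3 (26 treated and 12 control). The groups given here were CsA at 12 and 48 h, Fk at 12 and 48 h and Ra at 12 and 48 h, each against vehicle controls of the same time, the controls of Fk and Ra being shared. Beside them stood CdCl and Di at 12 and 48 h with 1 set of shared controls, and 4 compounds that were each given as a high (hd) and a low (ld) dose, namely Aa, Kbr and Nnm for 24 and 48 h and Ota for 24 and 72 h, with controls common to both doses and, for Kbr and Nnm, to both compounds. The labels give the compounds by these abbreviations only and state no concentration, so doses could not be matched between compounds. All cultures, controls included, grew in a serum-free medium with EGF, hydrocortisone, insulin, transferrin and selenite, were seeded 24 h before exposure and were near confluence when treated. Hydrocortisone is a ligand of the glucocorticoid receptor, and insulin is an upstream signal of mTOR. The labels call the 3 arrays of a group biological replicates. The CsA labels, controls included, name lab 3, which cannot be told apart from the compound where CsA is set against Fk or Ra.

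In their known mode of action, cyclosporin A binds cyclophilins and tacrolimus binds FKBP1A, and each complex blocks the phosphatase calcineurin, which otherwise dephosphorylates NFAT transcription factors and lets them enter the nucleus. Rapamycin also binds FKBP1A, but that complex binds MTOR within mTORC1, the complex that RPTOR holds together, and leaves calcineurin alone. One promoter inside the RCAN1 gene carries NFAT sites, so transcripts from it rise when calcineurin is active and the RCAN1 protein in turn restrains calcineurin. None of these actions needs a change in the transcript of the target itself.

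The 2 RefSeq promoter windows below are shown because they differ in the letters that NFAT proteins bind. The core GGAAA, which reads TTTCC from the other strand, is in capitals. Each window holds 250 bases before a start and 50 after it, 5′ to 3′ on the minus strand of GRCh38.p14; the first is chr21:34526773-34527072 and the second, 88291 bases upstream, is chr21:34615064-34615363.
RCAN1 internal promoter: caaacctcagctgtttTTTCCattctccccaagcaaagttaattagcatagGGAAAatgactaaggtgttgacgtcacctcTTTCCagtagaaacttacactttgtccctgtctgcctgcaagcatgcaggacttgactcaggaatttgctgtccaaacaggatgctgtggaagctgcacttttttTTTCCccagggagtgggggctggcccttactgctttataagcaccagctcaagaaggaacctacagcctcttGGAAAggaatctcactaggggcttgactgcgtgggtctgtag
RCAN1 upstream promoter: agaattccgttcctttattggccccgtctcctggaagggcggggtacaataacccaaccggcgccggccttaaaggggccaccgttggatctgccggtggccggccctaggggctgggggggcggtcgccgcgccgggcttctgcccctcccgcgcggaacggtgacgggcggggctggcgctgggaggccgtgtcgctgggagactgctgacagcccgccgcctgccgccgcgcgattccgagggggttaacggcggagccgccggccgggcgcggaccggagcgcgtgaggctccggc
The internal window held 5 matches, of which 2 read GGAAA and 3 read TTTCC, without overlap. Of all 35116 RefSeq windows of this length, 61.2% held at least 1 match and 0.74% held 5 or more. The internal window was taken as the 1 with most matches of the 6 RCAN1 windows, so that share does not measure how rare it is. The upstream window held none, as did 3 of the 6 in all. The windows at chr21:34525418-34525717 and chr21:34524588-34524887 held 1 match each. G and C made up 74% of the upstream window and 48% of the internal one. A window was found for 8 of the 10 genes, PPP3CA and PPP3CB being without one. The match is a description of the letters, and the array table does not say which start a transcript came from.

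The label of the cells was checked against markers by the mean log2 level over the controls. All 7 epithelial markers stood above 4, among them EPCAM at 13.13 and PAX8, a renal tubular transcription factor, at 10.52. Of 10 proximal tubule markers only DPP4 and GATM did, at 11.57 and 8.11, while AQP1, CUBN, LRP2 and SLC34A1 lay between 2.12 and 2.90. All 5 T cell and all 4 endothelial markers lay at or below 3.29, and of 4 fibroblast markers COL1A1 and DCN were at 8.15 and 10.98 and COL1A2 and PDGFRB at 3.00 and 2.42. On 1 array, Ra 48 h replicate 2, the upper quartile of all probe sets was 6.09, against 7.02 and 6.89 on the other Ra 48 h arrays and 6.88 to 6.96 on its controls. Ota high 24 h was also low, at 6.32 to 6.59 against 6.97 to 7.08 in its controls. Calls that rest on Ra 48 h, and the list counts there, are therefore given with and without that array. Other Ra values at 48 h include it unless stated.

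In control cultures all 10 genes lay above a log2 level of 4, in whole cultures in which fewer cells with a transcript and less of it per cell cannot be told apart. Over the 12 control groups the group mean of PPIA, the most abundant cyclophilin of most cells, ran from 14.80 to 14.99, so this probe set lay close to the top of the array's range. FKBP1A ran from 11.83 to 13.04, FKBP5 from 10.29 to 12.04 and PPIF from 10.33 to 12.18. PPP3CA, which encodes the alpha isoform of the calcineurin catalytic subunit, ran from 10.12 to 10.57, and PPP3CB, the beta isoform, ran from 8.27 to 9.61. RCAN1 ran from 7.74 to 8.85, MTOR from 7.22 to 7.64, RPTOR from 5.69 to 6.42 and PPP3R1, the regulatory subunit, from 4.92 to 6.42. Each range is of 1 probe set over cultures, and levels of different probe sets are not set against each other. FKBP5 was lowest, and FKBP1A highest, in the controls of Fk and Ra.

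Few of these transcripts passed the test in CsA, Fk or Ra, which does not show that the others were unchanged, since several intervals were wide. Of the 60 tests of a gene in these 6 comparisons, 2 passed limma's test at a Benjamini-Hochberg adjusted p under 0.05 over all genes tested, and both were falls in Ra at 48 h, of RCAN1 and of PPP3R1. The members' count has to be read against the share of all genes called. CsA at 12 h called 0 of 10 members and 0% of all genes, and CsA at 48 h called 0 members and 0.00925% of genes. The CsA cultures are paired by replicate number, and with the replicate as a block CsA at 48 h called 1 member, FKBP1A, and 23% of genes, while CsA at 12 h still called 0 members and 0% of genes. Fk called 0 members at either time, with 0.00918% of genes called at 12 h and 0% at 48 h. Ra at 12 h called 0 members and 0.0367% of genes. Ra at 48 h called 2 of 10 members and 9.33% of genes, 1.87% of them as higher and 7.46% as lower. At an unadjusted p under 0.05, CsA at 12 h had 88 genes and CsA at 48 h had 1401, Fk had 465 at 12 h and 348 at 48 h, and Ra at 12 h had 780. The few genes called there were chosen for naming after their values were seen. They were EML2-AS1 in CsA at 48 h, TCF15 in Fk at 12 h, and EVC, KLHL24, UBALD2 and ZNF362 in Ra at 12 h, all higher in treated cultures by 1.26 to 2.07 on the log2 scale, and none of them is in the pathway lists used here.

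**Figure D1:**
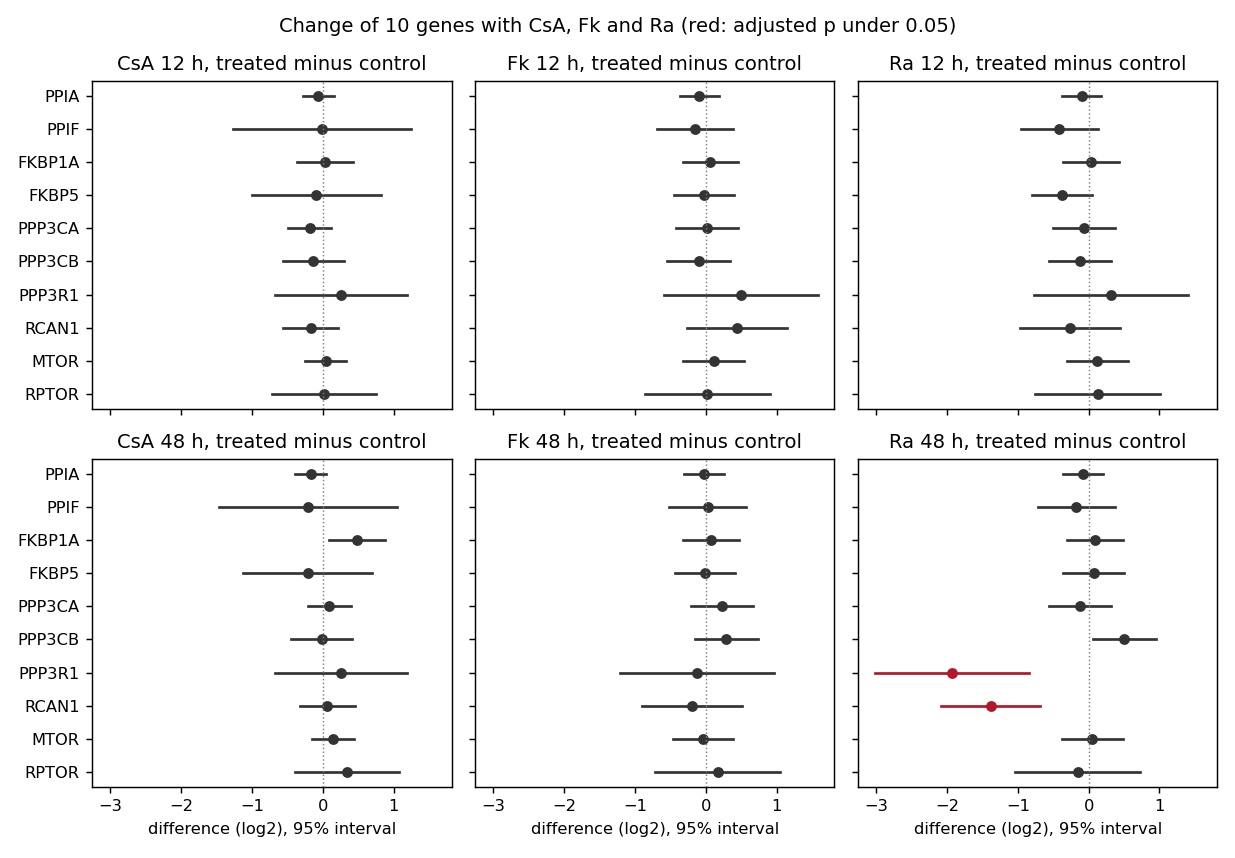
Change of each of the 10 genes in CsA, Fk and Ra at 12 and 48 h, as treated minus control mean on the log2 scale, with the 95% interval from limma. Red points passed the test at an adjusted p under 0.05; these are PPP3R1 at -1.93 and RCAN1 at -1.39, both in Ra at 48 h. The fit shown has no replicate block; with it FKBP1A in CsA at 48 h (0.49) passed too.

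RCAN1 encodes a protein that binds calcineurin and inhibits it. In CsA at 12 h its levels were 7.33, 7.61 and 7.79 in treated cultures, against 7.55, 7.64 and 8.04 in controls, a difference of -0.17 with a 95% interval of -0.56 to 0.22. In CsA at 48 h they were 8.30, 8.72 and 8.35 in treated cultures, against 8.41, 8.44 and 8.32 in controls, a difference of 0.07 (-0.33 to 0.46). The groups overlapped at both times, though at 12 h each CsA culture lay below its own control. With the replicate as a block the intervals were -0.41 to 0.07 at 12 h and -0.17 to 0.30 at 48 h. Neither difference passed (adjusted p of 0.791 and 0.678 in that order by limma).

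In Fk at 12 h the RCAN1 levels were 8.47, 8.23 and 8.81 in treated cultures, against 8.07, 7.93 and 8.20 in controls. All 3 treated arrays lay above the controls, yet the difference of 0.44 had an interval of -0.27 to 1.14 and an adjusted p of 0.99. In Fk at 48 h they were 8.89, 9.24 and 7.74 in treated cultures, against 8.67, 8.90 and 8.88 in controls, a difference of -0.20 (-0.90 to 0.51). Replicate 3 of Fk at 48 h lay below every control, and the other Fk replicates lay above at least 2 of the 3 controls. In Ra at 12 h the levels were 7.99, 7.66 and 7.76 in treated cultures, against 8.07, 7.93 and 8.20 in controls, a difference of -0.26 (-0.97 to 0.44), again with overlap.

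In Ra at 48 h RCAN1 was 8.05, 6.84 and 7.40 in treated cultures, against 8.67, 8.90 and 8.88 in controls. Every treated array lay below every control, and the 1 with the low upper quartile was the lowest of all. The mean fell by 1.39 on the log2 scale (SE 0.33, 95% interval -2.09 to -0.68, adjusted p = 0.0236 by limma), which is 2.61-fold lower. Without Ra replicate 2 the difference was -1.09 with an adjusted p of 0.0656. The call was also lost without control replicate 1 (adjusted p = 0.0834), control replicate 2 (0.0982) or Ra replicate 3 (0.0517), and kept without control replicate 3 (0.0317) or Ra replicate 1 (0.00457). After quantile normalization it was -1.09 (adjusted p = 0.019). A second RCAN1 probe set, 215253_s_at, gave -1.10 (adjusted p = 0.12), at 3.84, 4.30 and 3.63 in Ra cultures, against 4.24, 5.30 and 5.51 in controls; without Ra replicate 2 it was -1.29 (adjusted p = 0.14).

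PPP3R1 encodes calcineurin B, the calcium-binding subunit that the catalytic subunits need for activity. In Ra at 48 h its levels were 5.61, 3.12 and 4.72 in treated cultures, against 7.07, 6.81 and 5.37 in controls. Here the groups overlapped, since Ra replicate 1 lay above control replicate 3, and Ra replicate 2 was the lowest by a wide margin. The mean fell by 1.93 on the log2 scale (SE 0.51, 95% interval -3.02 to -0.85, adjusted p = 0.0309), which is 3.82-fold lower. Without Ra replicate 2 it was -1.25 (adjusted p = 0.0921), and the call was lost too without control replicate 1 (0.14), control replicate 2 (0.126) or Ra replicate 3 (0.0541). After quantile normalization it was -2.01 (adjusted p = 0.0199).

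The second PPP3R1 probe set, 204506_at, had the same sign in Ra at 48 h but was not called. It was 3.84, 3.69 and 3.94 in Ra cultures, against 4.010, 4.004 and 4.004 in controls, a difference of -0.18 (adjusted p = 0.455), or -0.11 without Ra replicate 2 (adjusted p = 0.696). All of these values lay near the level of 4 used as the filter, where GCRMA values carry little signal. This probe set is therefore no test of the fall seen by the first. In the other 5 comparisons the first probe set differed by -0.12 (Fk at 48 h) to 0.50 (Fk at 12 h), with no call. In Fk at 12 h it was 6.17, 6.02 and 6.22 in treated cultures, against 5.65, 5.65 and 5.60 in controls, which did not overlap but had an interval of -0.59 to 1.59.

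**Figure D2:**
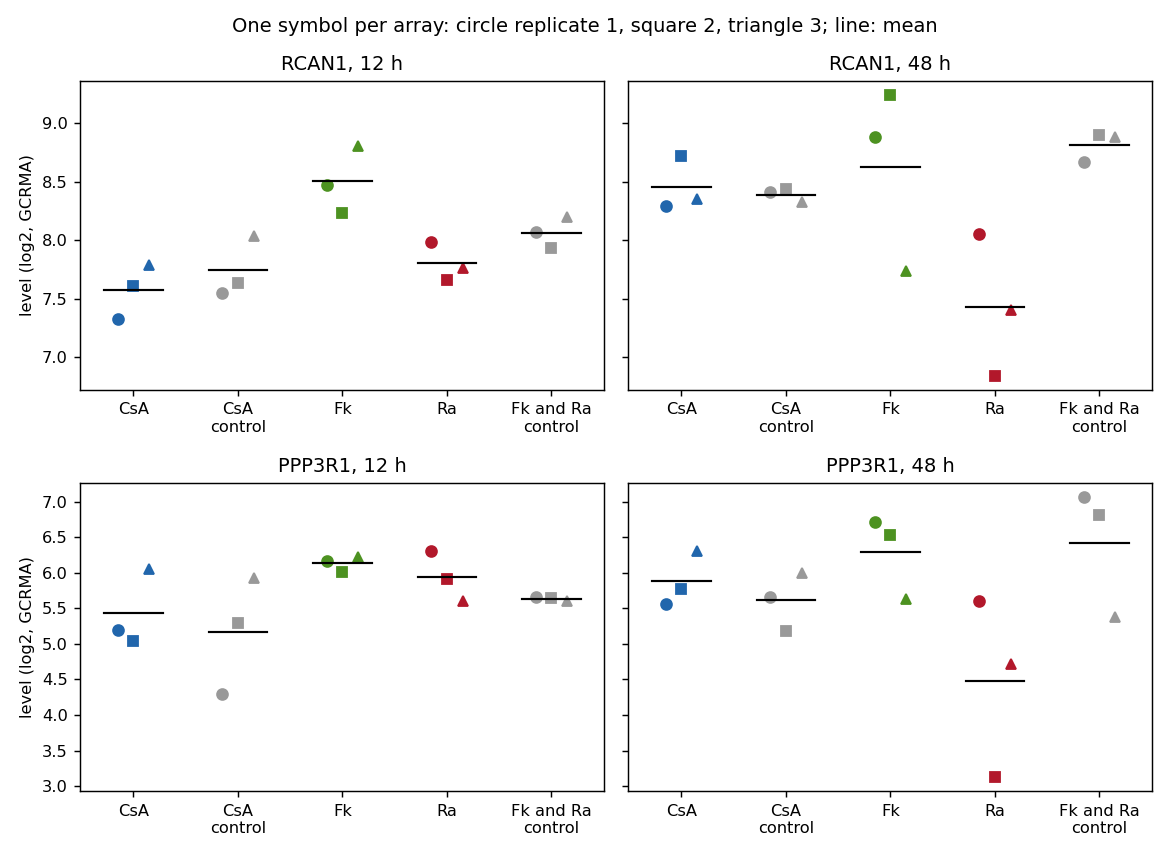
Log2 level of RCAN1 (probe set 208370_s_at) and PPP3R1 (204507_s_at) on every array of CsA, Fk and Ra and of their controls at 12 and 48 h; each symbol is 1 array and each line a group mean. At 48 h the Ra arrays of RCAN1 lie between 6.84 and 8.05, below all 3 controls, and those of PPP3R1 between 3.12 and 5.61.

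At 48 h the transcripts of both genes were higher in Fk than in Ra, a direct comparison in which 7.39% of all genes were called and 2 of the 10 members. RCAN1 was 8.89, 9.24 and 7.74 in Fk, against 8.05, 6.84 and 7.40 in Ra, a difference of 1.19 (SE 0.33, adjusted p = 0.0421). PPP3R1 was 6.72, 6.52 and 5.63 in Fk, against 5.61, 3.12 and 4.72 in Ra, a difference of 1.81 (SE 0.51, adjusted p = 0.044). For RCAN1 the groups overlapped through Fk replicate 3, and for PPP3R1 they did not. With Ra replicate 2 left out the adjusted p was 0.138 for RCAN1 and 0.147 for PPP3R1, and both calls were also lost without Fk replicate 1, Fk replicate 2 or Ra replicate 3. At 12 h none of the members and 0% of all genes were called between Fk and Ra, with 572 genes at an unadjusted p under 0.05, and RCAN1 differed by 0.70 (-0.0024 to 1.41, adjusted p = 0.882), with every Fk array above every Ra array.

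The CsA change minus the Ra change at 48 h was 1.45 for RCAN1 (SE 0.41, adjusted p = 0.0249) and 2.20 for PPP3R1 (SE 0.70, adjusted p = 0.0446), in a comparison that called 11.9% of all genes. Without Ra replicate 2 the adjusted p was 0.0649 for RCAN1 and 0.125 for PPP3R1. Both calls were lost too without CsA replicate 2, CsA control replicate 1 or replicate 1 or 2 of the controls of Ra, and that of PPP3R1 also without CsA replicate 3, CsA control replicate 2 or Ra replicate 3. The CsA change minus the Fk change at 48 h was called for 0 members and 0% of all genes, with 553 genes at an unadjusted p under 0.05. Its value was 0.26 for RCAN1 (-0.58 to 1.10), 0.39 for PPP3R1 (-1.07 to 1.84) and 0.41 for FKBP1A (-0.12 to 0.93), so differences of that width were not resolved. At 12 h neither CsA minus Fk nor CsA minus Ra called a member, and both called 0% of genes, with 135 and 202 genes in that order at an unadjusted p under 0.05. The Ra change at 48 h minus that at 12 h was -1.12 for RCAN1 (adjusted p = 0.244) and -2.24 for PPP3R1 (adjusted p = 0.153), and 0.0459% of all genes but no member passed. The matching differences between times passed for no member and no gene in CsA (382 genes at an unadjusted p under 0.05) or in Fk (231 genes). All values and shares of genes in this paragraph are from fits without a block, which leave the pairing of the CsA cultures aside. With the replicate as a block the counts of members called were the same, and the shares of all genes are not given.

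FKBP1A, the protein through which tacrolimus and rapamycin act, was not called in Fk or Ra. Its difference from control was 0.07 in Fk at 12 h, 0.08 in Fk at 48 h, 0.04 in Ra at 12 h and 0.09 in Ra at 48 h, with intervals reaching from -0.36 to 0.48. In CsA at 48 h it was 12.31, 12.49 and 12.35 in treated cultures, against 11.54, 12.14 and 12.02 in controls. Every CsA array lay above every control, and the difference was 0.49 (SE 0.18, 95% interval 0.09 to 0.88, adjusted p = 0.296). With the replicate as a block the same difference had an SE of 0.10 and an interval of 0.24 to 0.73 and passed (adjusted p = 0.0191). That blocked comparison called 23% of all genes, 2484 genes, against 1 without the block, and 1 of the 10 members. Without a block the other FKBP1A probe sets gave 0.62 (214119_s_at, adjusted p = 0.338), 0.80 (210186_s_at, 0.331) and 0.27 (210187_at, 0.662). Leaving out control replicate 1, at 11.54, gave 0.31 by the first probe set (adjusted p = 0.713), again without a block. FKBP1A was at 12.47, 12.33 and 12.66 in CsA cultures at 12 h, against 12.41, 12.27 and 12.67 in controls, which overlapped.

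PPIA and PPIF, a cytosolic and a mitochondrial cyclophilin and both binders of cyclosporin A, were not called in CsA. PPIA differed by -0.06 at 12 h (-0.28 to 0.16) and by -0.17 at 48 h (-0.39 to 0.05), and at both times every CsA array lay below every control. PPIF at 12 h was 11.22, 11.05 and 12.77 in CsA cultures, against 11.20, 11.16 and 12.74 in controls. Replicate 3 was higher than the others by over 1 in both groups, and the difference between the groups was -0.02. At 48 h PPIF was 10.48, 10.45 and 11.33 in CsA cultures, against 10.61, 10.58 and 11.71 in controls, a difference of -0.21 (-1.47 to 1.05). With the replicate as a block the interval was -0.41 to -0.01 and the adjusted p 0.122. In Fk and Ra PPIF differed by -0.42 (Ra at 12 h, -0.96 to 0.13) to 0.03 (Fk at 48 h).

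FKBP5 encodes a co-chaperone of the glucocorticoid receptor that the receptor itself induces, and it also binds tacrolimus and rapamycin. In CsA at 12 h it was 11.75, 11.75 and 10.47 in treated cultures, against 11.84, 11.77 and 10.63 in controls, so replicate 3 again stood apart in both groups. Over the 6 comparisons its difference ran from -0.37 in Ra at 12 h to 0.07 in Ra at 48 h. In Ra at 12 h it was 10.32, 10.63 and 10.40 in treated cultures, against 10.79, 10.85 and 10.83 in controls, all lower, with an interval of -0.80 to 0.05 and an adjusted p of 0.733.

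The catalytic subunits and the mTOR genes were not called. PPP3CA differed by -0.18 in CsA at 12 h to 0.23 in Fk at 48 h. PPP3CB was 8.92, 8.89 and 9.27 in Ra cultures at 48 h, against 8.21, 8.30 and 9.06 in controls, a difference of 0.51 (0.06 to 0.95, adjusted p = 0.121), with replicate 3 of the controls inside the range of the Ra arrays. It passed after quantile normalization (0.73, adjusted p = 0.0385), in a fit of all arrays (0.51, adjusted p = 0.0383) and without control replicate 3 (0.78, adjusted p = 0.0171), and was 0.57 (adjusted p = 0.13) without Ra replicate 2. Its other probe set, 209817_at, was 8.88, 7.44 and 8.79 in Ra cultures, against 8.29, 8.10 and 8.34 in controls, a difference of 0.13 (adjusted p = 0.824), or 0.59 without Ra replicate 2 (adjusted p = 0.113). Replicate 2 was the only Ra array of that probe set below the controls. MTOR differed by -0.04 (Fk at 48 h) to 0.15 (CsA at 48 h), the narrowest span of the 10 genes apart from PPIA, which ran from -0.17 to -0.02. RPTOR ran from -0.15 in Ra at 48 h to 0.34 in CsA at 48 h, with intervals of -1.04 to 0.73 and -0.40 to 1.08. In Ra at 48 h RPTOR was 5.63, 4.95 and 6.02 in treated cultures, against 5.30, 5.67 and 6.11 in controls. Ra replicate 2 was the lowest of these and the only Ra array below every control.

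Between control cultures at 48 and 12 h, 1 of 10 members was called in each of these families, a share no higher than that of all genes. The counts are therefore not a result about the members. RCAN1 was 8.41, 8.44 and 8.32 in the CsA controls at 48 h, against 7.55, 7.64 and 8.04 at 12 h, a difference of 0.65 (adjusted p = 0.0383) in a comparison that called 13.5% of all genes and 1 of 10 members. In the controls of Fk and Ra it was 8.67, 8.90 and 8.88 at 48 h, against 8.07, 7.93 and 8.20 at 12 h, a difference of 0.75 (0.05 to 1.46, adjusted p = 0.133); 16% of all genes were called there, and of the members PPP3CB, at -0.69 (adjusted p = 0.0364). The RCAN1 call was lost without any single CsA control array other than replicate 3 at 12 h, and the PPP3CB call without any single control of Fk and Ra other than replicate 3 at 48 h. With the replicate as a block, PPIF (-0.73, adjusted p = 0.0128), FKBP1A (-0.55, 0.0328) and PPP3CB (-0.59, 0.0147) were also called lower at 48 h in the CsA controls. The share of all genes called in that blocked fit is not given, so these calls are not read as results about the members.

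The wider pathway was followed in 7 lists of genes related to the members, none of which holds a member. In CsA, Fk and Ra at 12 h and in CsA and Fk at 48 h, 0 of their genes passed the test without a block. In Ra at 48 h the median change of all genes was -0.19, and 204 genes were called higher and 812 lower; without Ra replicate 2 the median was 0.00 and 370 were higher and 238 lower, or 5.59% of all genes (3.4% higher and 2.19% lower). The number of calls itself rested on single arrays, with 25 without control replicate 2 and 2361 without Ra replicate 1. The list counts below are given both ways.

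Of 23 tested subunits and regulators of the mTOR complexes, 4 fell and none rose in Ra at 48 h, with a list median of -0.31. SESN2, a sestrin that restrains mTORC1 and is induced by stress, was 9.49, 6.19 and 7.34 in Ra cultures, against 10.45, 10.16 and 10.56 in controls. Its mean fell by 2.72 on the log2 scale (adjusted p = 0.0161). DDIT4, a stress-induced inhibitor of mTORC1 that glucocorticoids also induce, was 13.10, 11.002 and 11.16 in Ra cultures, against 13.60, 13.29 and 13.62 in controls, a fall of 1.75 (adjusted p = 0.0188). Both genes were lower on every Ra array than on any control, and Ra replicate 1 was the closest to the controls in each. RRAGC, a Rag GTPase that brings mTORC1 to lysosomes, differed by -0.81 (adjusted p = 0.0241). Without Ra replicate 2, SESN2 was called at -1.98 (adjusted p = 0.0329) and no other gene of the list, DDIT4 having an adjusted p of 0.0508; the list median was then -0.02.

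Of 14 mTORC1 substrates, 1 rose and 2 fell in Ra at 48 h, with a median of -0.09. EIF4EBP2, a translational repressor that mTORC1 inactivates, was 9.32, 9.00 and 9.60 in Ra cultures, against 8.67, 8.46 and 8.81 in controls, higher by 0.66 (adjusted p = 0.0252) with no overlap. GRB10, an adaptor that mTORC1 phosphorylates and that dampens insulin signalling, was 8.73, 7.09 and 7.54 in Ra cultures, against 9.61, 9.72 and 9.17 in controls, a difference of -1.71 (adjusted p = 0.0142). EIF4EBP1, a repressor of the same family, differed by -1.31 (adjusted p = 0.0203). Without Ra replicate 2 EIF4EBP2 (0.81, adjusted p = 0.0107) and GRB10 (-1.37, adjusted p = 0.034) were called and EIF4EBP1 was not (0.0567).

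In the other lists 2 genes were called in Ra at 48 h. FKBP14, an endoplasmic reticulum prolyl isomerase, was the 1 of 11 FKBP family genes called in Ra at 48 h (median -0.02), at 7.21, 6.25 and 7.03 in Ra cultures, against 9.48, 8.78 and 7.83 in controls, a difference of -1.87 (adjusted p = 0.032, or 0.0965 without Ra replicate 2). CSNK1A1, a casein kinase that phosphorylates NFAT, was the 1 of 10 NFAT factors and kinases called (median -0.23), at -0.74 (adjusted p = 0.0307, or 0.0755 without that array). None of 13 cyclophilins (median -0.40), 6 calcineurin subunits and regulators (median -0.00) and 11 genes of the glucocorticoid receptor and its targets (median -0.06) was called. With that array left out the medians were -0.23, 0.20 and 0.24 in that order. Then 3 further genes of these lists passed, named after their values were seen. FKBP4, a co-chaperone of steroid receptors in the FKBP family, was higher by 0.63 (adjusted p = 0.0373), and PTGES3, the receptor co-chaperone p23 of the glucocorticoid list, by 0.50 (adjusted p = 0.0362). Of the calcineurin list RCAN3, a relative of RCAN1, was higher by 1.92 (adjusted p = 0.0234), at 5.46 and 7.05 in Ra cultures, against 4.33, 3.78 and 4.90 in controls. For RCAN3 replicate 2 itself read 4.59, inside the range of the controls.

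In CsA at 48 h, list genes were called with the replicate block and not without it. These counts stand beside 23% of all genes called in that blocked fit, 9.89% as higher and 13.1% as lower. Among 13 cyclophilins 3 rose and 1 fell (median 0.18, against 0.00 over all genes). PPIB, the cyclophilin of the endoplasmic reticulum, was 13.45, 13.80 and 13.78 in CsA cultures, against 12.03, 13.05 and 12.92 in controls. It was higher in every pair and in every CsA array than in any control, by 1.01 (adjusted p = 0.00497). PPIC, another secretory-pathway cyclophilin, was higher by 0.45 (adjusted p = 0.0374), and PPIL1, a spliceosomal one, differed by -0.38 (adjusted p = 0.0464).

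Of 11 FKBP family genes 2 rose and 2 fell with the block (median 0.04). FKBP14 was 10.00, 10.52 and 10.35 in CsA cultures, against 8.67, 9.55 and 9.83 in controls, higher by 0.94 (adjusted p = 0.00865), and FKBP2, which also resides in the endoplasmic reticulum, was higher by 0.55 (adjusted p = 0.00662). FKBP3, a nuclear member, differed by -0.48 (adjusted p = 0.00746). No calcineurin gene of 6 was called (median -0.09), and of 10 NFAT genes NFATC2IP, at -0.45 (adjusted p = 0.0343, list median -0.11).

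Of 23 mTOR regulators 2 fell with the block and none rose (median 0.06). DEPTOR, a subunit that inhibits both mTOR complexes, was 10.93, 10.17 and 9.01 in CsA cultures, against 11.75, 11.26 and 10.14 in controls. The groups overlapped, but each CsA culture lay below its own control, by 1.02 on average (adjusted p = 0.00309). Of 14 mTORC1 substrates 5 rose and none fell (median 0.27), the largest being ATG13, an autophagy initiation factor, at 0.69 (adjusted p = 0.0188), ULK1, the kinase it works with, at 0.61 (0.0376), and MAF1, a repressor of RNA polymerase III, at 0.50 (0.0364).

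Of 11 genes of the glucocorticoid receptor and its targets 2 rose and 4 fell with the block (median 0.04). SGK1, a kinase induced by glucocorticoids, was 12.47, 10.67 and 11.33 in CsA cultures, against 13.22, 12.59 and 12.88 in controls, a difference of -1.41 (adjusted p = 0.00616) with no overlap. KLF9, also a target of the receptor, was higher by 1.07 (adjusted p = 0.0318). It was 4.14, 5.22 and 5.80 in CsA cultures, against 3.73, 3.57 and 4.65 in controls, which overlapped and lay near the filter level of 4. NFKBIA, an inhibitor of NF-kappaB, differed by -0.92 (adjusted p = 0.0113). FKBP5, a target of the same receptor, had an adjusted p of 0.0982 there, at -0.21.

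In the other compounds the same 10 transcripts were called far more often. Of 200 tests of a member in 20 comparisons, 61 passed, 33 higher and 28 lower. That is 30.5% of the tests, against 34.3% of all gene tests in these comparisons, so as a group the members were called about as often as other genes. By comparison, CdCl called 6 members at 12 h and 6 at 48 h, with 48.7% and 46.4% of all genes called in that order. Di called 0 at 12 h and 5 at 48 h, with 11.8% and 47.4% of genes. Aa called 1 and 3 members at the low dose at 24 and 48 h (23.2% and 37% of genes) and 6 and 8 at the high dose (49.9% and 64.3%). Kbr called 0 and 4 at the low dose (1.36% and 29.4%) and 3 and 4 at the high dose (21.6% and 51.1%). Nnm called 0 and 0 at the low dose (18.5% and 14.1%) and 2 and 2 at the high dose (35.9% and 27.7%). Ota called 0 and 0 at the low dose at 24 and 72 h (13.7% and 16%) and 4 and 7 at the high dose (65% and 63.2%). The median change of all genes was below -0.1 in CdCl at 12 h (-0.17) and in Ota high at 24 h (-0.29) and 72 h (-0.15). Of these 61 calls, 32 passed under each alternative processing tried, other probe sets aside. The calls with the replicate block given below for Aa, Kbr and Nnm stand without the share of all genes called in those fits. They are not read as results about the members.

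**Figure D3:**
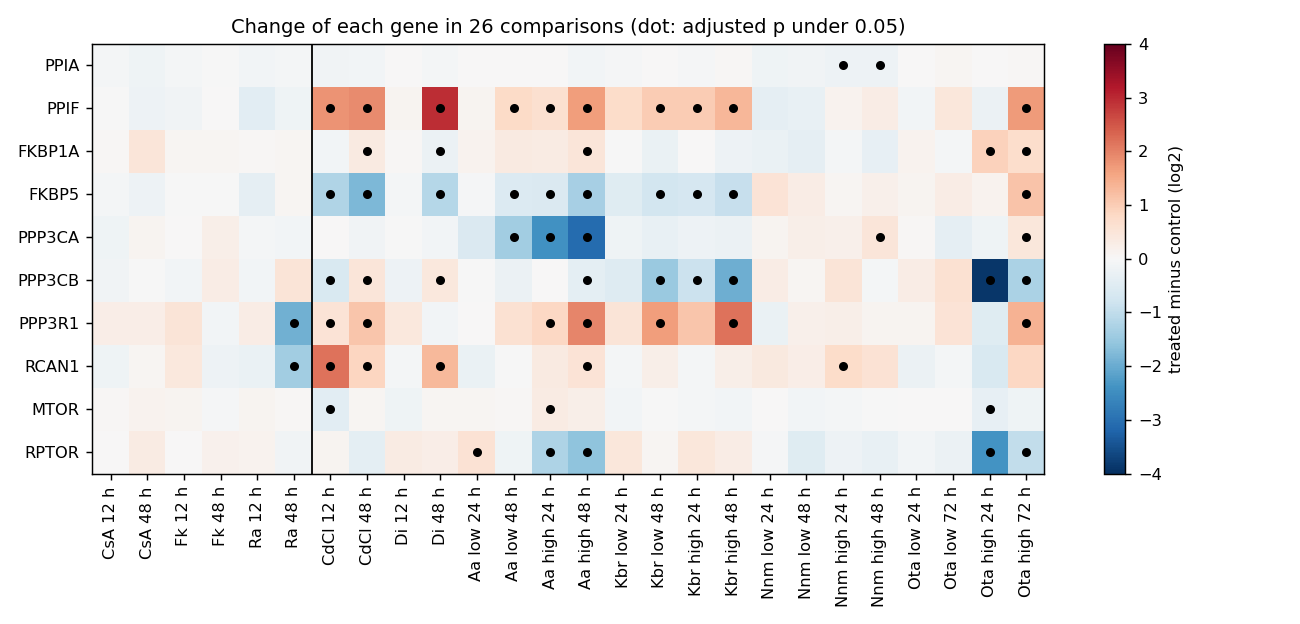
Change of each of the 10 genes in all 26 comparisons, as treated minus control mean on the log2 scale, in colour; a dot marks an adjusted p under 0.05. PPIF (10 higher), PPP3R1 (7 higher), RCAN1 (5 higher) and PPIA (2 lower) were called in 1 direction only among the other compounds, and FKBP5 was lower in 9 of its 10 calls. The second PPP3R1 probe set was called in none of those 7.

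PPIF encodes cyclophilin D, which regulates the mitochondrial permeability transition pore. It was called higher in 10 of the 20 comparisons and lower in none. In Di at 48 h it was 13.33, 13.21 and 13.26 in treated cultures, against 10.32, 10.35 and 10.31 in controls, higher by 2.94 (SE 0.07, adjusted p = 2.24e-13), or 7.67-fold. In CdCl at 12 h it was 12.96, 13.08 and 13.23 in treated cultures, against 11.26, 11.36 and 11.28 in controls, higher by 1.79 (adjusted p = 7.16e-11). In Di at 12 h the difference was 0.12, with no call. The groups did not overlap in any of the 10 calls. The others were CdCl at 48 h (1.91), Ota high at 72 h (1.71), Aa high at 48 h (1.67), Kbr high at 48 h (1.33), Kbr high at 24 h (1.02), Kbr low at 48 h (1.01), Aa low at 48 h (0.77) and Aa high at 24 h (0.65). The second PPIF probe set had the same sign in all 10 and was called in 9. The call in Aa high at 24 h was lost without control replicate 2 or Aa high replicate 3, and that in Kbr high at 24 h without control replicate 2. With the replicate as a block PPIF also passed in Kbr low at 24 h (0.72, adjusted p = 0.0088).

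FKBP5 was called lower in 9 comparisons and higher in 1. In CdCl at 48 h it was 9.82, 9.66 and 9.28 in treated cultures, against 11.31, 11.46 and 11.37 in controls, and its mean fell by 1.79 on the log2 scale (SE 0.13, adjusted p = 3.65e-08), or 3.47-fold. The other falls past 1 were in Aa high at 48 h (-1.34), CdCl at 12 h (-1.20) and Di at 48 h (-1.14). The rise was in Ota high at 72 h, at 12.62, 13.30 and 11.78 in treated cultures, against 11.36, 11.65 and 11.25 in controls, higher by 1.14 (adjusted p = 0.00288). The groups did not overlap in any of these, and both other FKBP5 probe sets had the same sign in all 10 calls. The other 5 falls lay between -0.93 and -0.56. Of these, the call in Aa low at 48 h was lost in 7 of 15 alternatives (adjusted p of up to 0.14), that in Aa high at 24 h in 4, that in Kbr high at 24 h in 3 and that in Kbr low at 48 h in 1. With the block, Kbr low at 24 h (-0.48, adjusted p = 0.0239) and Nnm low at 24 h (0.54, adjusted p = 0.00369) passed as well.

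FKBP1A moved by less. It was called higher in Ota high at 24 h (0.91, adjusted p = 1.75e-06) and at 72 h (0.69, adjusted p = 3.19e-05), in Aa high at 48 h (0.50, lost without Aa high replicate 1 or 3 or control replicate 2) and in CdCl at 48 h (0.35), and lower in Di at 48 h (-0.22). In Ota high at 24 h it was 12.96, 12.95 and 13.04 in treated cultures, against 12.18, 11.91 and 12.12 in controls. A further probe set of the gene, 210187_at, did not follow the first. In Ota high at 72 h it was 3.62, 4.23 and 3.62 in treated cultures, against 4.57, 5.01 and 5.10 in controls, a difference of -1.07 (adjusted p = 0.00958), opposite to the first probe set. It was also called lower in Aa and Nnm at both doses and times and in Ota at the low dose, and the first probe set was called lower in none of these without a block. Further probe sets 214119_s_at and 210186_s_at had the sign of the first in all 5 of its calls. With the block the first probe set passed in Aa high at 24 h (0.34, adjusted p = 0.00505), Aa low at 48 h (0.37, 0.00438), Nnm high at 48 h (-0.32, 0.0172) and Nnm low at 48 h (-0.35, 0.0155). PPIA was called in Nnm high at 24 h and at 48 h, at -0.20 each, and these calls were lost in 7 and 6 of 14 alternatives in that order.

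**Figure D4:**
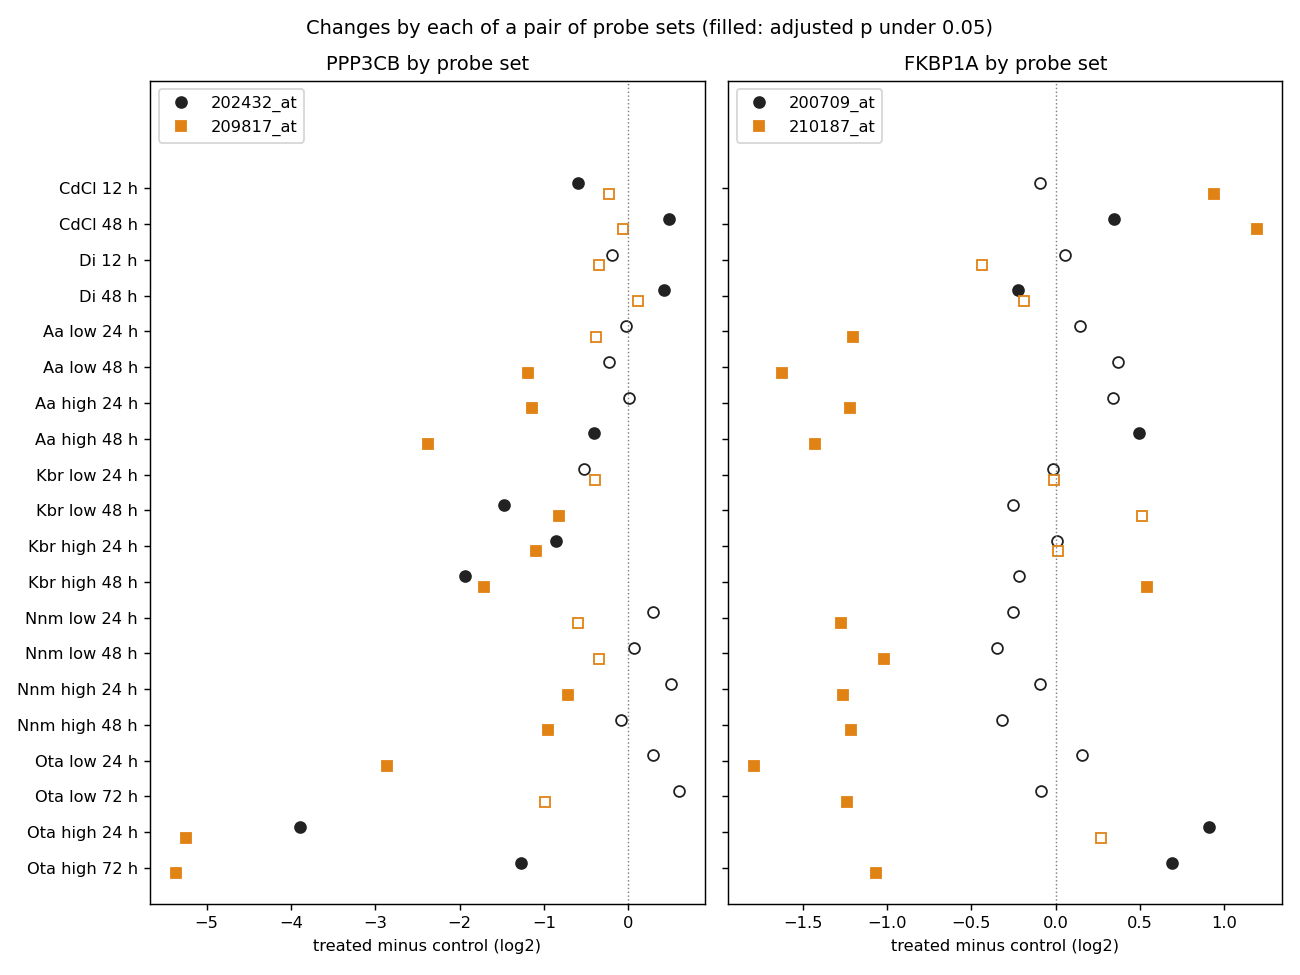
Change of PPP3CB and FKBP1A by each of a pair of probe sets in the 20 comparisons of the other compounds, as treated minus control mean on the log2 scale; filled symbols passed at an adjusted p under 0.05. PPP3CB falls in Ota high by both (-3.89 and -5.25 at 24 h), while the FKBP1A probe sets part in Ota high at 72 h (0.69 and -1.07).

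Each calcineurin subunit was called in several of these compounds. PPP3CA fell in Aa. In Aa high at 48 h it was 7.49, 6.36 and 7.41 in treated cultures, against 10.19, 10.23 and 10.09 in controls, a difference of -3.08 on the log2 scale (SE 0.26, adjusted p = 1.25e-07). It differed by -2.42 in Aa high at 24 h and by -1.39 in Aa low at 48 h, and the high dose differed from the low dose by -1.83 at 24 h (adjusted p = 0.000144) and by -1.69 at 48 h (adjusted p = 0.000115). Those dose comparisons called 26.4% and 44.8% of all genes. PPP3CA was higher in Nnm high at 48 h (0.48) and in Ota high at 72 h (0.44). The first call was lost without Nnm high replicate 1 and the second without control replicate 1 or 3 or Ota high replicate 1 or 2. Both other PPP3CA probe sets had the sign of the first in all 5 calls, 202429_s_at being called in 3 of them and 202425_x_at in 4. With the block the first probe set passed at -0.29 in Kbr low at 48 h (adjusted p = 0.043).

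PPP3CB was called lower in 7 of the 20 comparisons and higher in 2. The falls were in Ota high at both times, Kbr high at both times, Kbr low at 48 h, Aa high at 48 h and CdCl at 12 h. In Ota high at 24 h it was 5.57, 5.32 and 6.10 in treated cultures, against 9.46, 9.68 and 9.51 in controls, a difference of -3.89 on the log2 scale (SE 0.22, adjusted p = 9.74e-10), or 14.8-fold lower. The upper quartile of these 3 Ota arrays was low, as given above, and the part of that in the difference was not tested; after quantile normalization, which equalizes it, the difference was -3.42. In Kbr high at 48 h PPP3CB was 7.26, 7.11 and 7.95 in treated cultures, against 9.42, 9.27 and 9.46 in controls, a difference of -1.94 (adjusted p = 3.99e-07), and Kbr low at 48 h differed by -1.47. In CdCl at 12 h it was 9.02, 9.06 and 8.96 in treated cultures, against 9.45, 9.70 and 9.68 in controls, a difference of -0.60 (adjusted p = 0.000986), where the second probe set gave -0.23 (adjusted p = 0.343). In Aa high at 48 h it was 9.03, 8.90 and 8.86 in treated cultures, against 9.37, 9.21 and 9.41 in controls, a difference of -0.40 (adjusted p = 0.00219). The second probe set fell further there, at 6.63, 6.41 and 5.90 in treated cultures, against 8.75, 8.71 and 8.62 in controls (-2.38, adjusted p = 3.71e-08), and it also passed in Aa high at 24 h (-1.14, adjusted p = 6.71e-05), where the first gave 0.0092. The second PPP3CB probe set gave -5.25 and -5.37 in Ota high at 24 and 72 h, at 3.47, 5.70 and 3.43 in Ota high cultures at 24 h, against 9.32, 9.26 and 9.76 in controls. It also gave -2.86 in Ota low at 24 h (adjusted p = 0.000608), where the first gave 0.29. PPP3CB was higher in CdCl and Di at 48 h, by 0.49 and 0.42, where the second probe set gave -0.061 and 0.12. The call in Di was lost without control replicate 1. With the block it passed in Aa low at 48 h (-0.23, adjusted p = 0.0487) and in Nnm high at 24 h (0.50, adjusted p = 0.0361), where the second probe set gave -0.71.

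PPP3R1 was called higher in 7 comparisons and lower in none. In Kbr high at 48 h it was 8.09, 7.63 and 7.04 in treated cultures, against 5.31, 5.40 and 5.55 in controls, higher by 2.17 (SE 0.41, adjusted p = 0.000133), with no overlap. Aa high at 48 h gave 1.95, Kbr low at 48 h 1.67, Ota high at 72 h 1.38, CdCl at 48 h 1.11, Aa high at 24 h 0.83 and CdCl at 12 h 0.54. The call in Ota high was lost without control replicate 2, and that in CdCl at 12 h without either of CdCl replicates 1 and 2 or any 1 control. The second probe set was called in none of the 7. In Kbr high at 48 h it was 4.64, 4.65 and 4.18 in treated cultures, against 4.42, 3.92 and 4.03 in controls, a difference of 0.37. With the block PPP3R1 also passed in Kbr high at 24 h (1.11, adjusted p = 0.0248) and in Aa low at 48 h (0.61, adjusted p = 0.0465).

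RCAN1 was called higher in 5 of the 20 comparisons and lower in none. In CdCl at 12 h it was 10.19, 10.35 and 10.51 in treated cultures, against 8.14, 8.23 and 8.20 in controls, higher by 2.16 (SE 0.09, adjusted p = 1.08e-10), or 4.47-fold. In Di at 48 h it was 10.20, 10.20 and 10.08 in treated cultures, against 8.75, 8.93 and 8.88 in controls, higher by 1.30 (adjusted p = 1.78e-08). These were the highest RCAN1 levels of the series, and all arrays of both groups lay above every array of any other group.

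In CdCl at 48 h the RCAN1 levels were 9.65, 9.71 and 9.80 in treated cultures, against the same controls at 48 h, higher by 0.87 (adjusted p = 1.85e-06). In the order of group means these groups stood at 10.35, 10.16 and 9.72 and were followed by Ota high at 72 h at 9.15, whose arrays at 9.18, 9.05 and 9.21 lay below those of CdCl at 48 h. CdCl at 12 h and Di at 48 h, next to each other in that order, overlapped in their arrays. Ota high at 72 h differed from its controls by 0.82 without a call. At the low end stood Ota high at 24 h, with 7.65, 5.69 and 8.08 and a mean of 7.14, and Ra at 48 h, with a mean of 7.43; their arrays overlapped.

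The second RCAN1 probe set was called higher in the same 5 comparisons. In CdCl at 12 h it was 7.41, 6.97 and 7.74 in treated cultures, against 4.22, 3.52 and 3.63 in controls, higher by 3.58. Of the smaller calls, Aa high at 48 h gave 0.53 (adjusted p = 0.0232, lost without control replicate 2 or Aa high replicate 3) and Nnm high at 24 h 0.74 (adjusted p = 0.0307). Nnm high at 24 h was 9.00, 7.97 and 9.23 in treated cultures, against 7.90, 7.999 and 8.07 in controls; replicate 2 lay inside the range of the controls, and the call was lost without any 1 control or Nnm high replicate 1 or 3. With the block Nnm high at 48 h passed too (0.58, adjusted p = 0.0315).

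**Figure D5:**
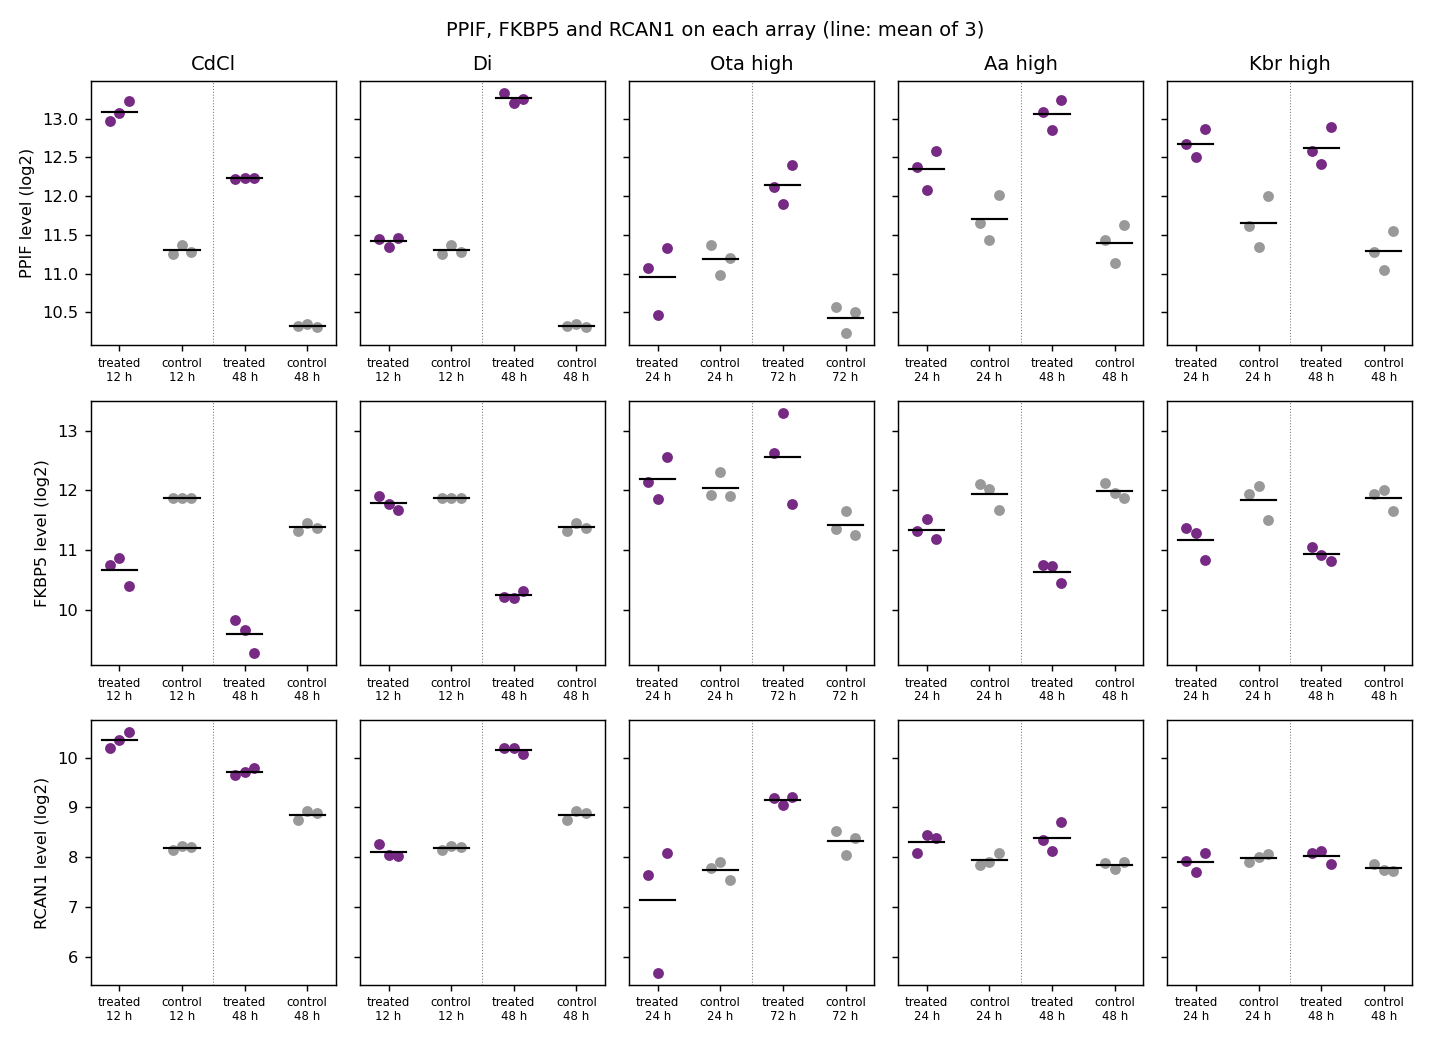
Log2 level of PPIF, FKBP5 and RCAN1 (panel rows) on every array of CdCl, Di, Ota high, Aa high and Kbr high and of their controls (panel columns) at the earlier and the later time; each point is 1 array and each line a group mean. PPIF averages 13.27 and RCAN1 10.16 in Di at 48 h, both above their controls, and FKBP5 lies below its controls in all but Di at 12 h and Ota high.

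MTOR stayed within a range of -0.42 to 0.34 over all 26 comparisons. It was called in CdCl at 12 h, at 7.15, 6.97 and 6.98 in treated cultures, against 7.46, 7.33 and 7.58 in controls, a difference of -0.42 (adjusted p = 0.000367). The call in Aa high at 24 h (0.34) was lost without Aa high replicate 2 or control replicate 3. The call in Ota high at 24 h (-0.32) was lost without any 1 control or Ota high replicate 1 or 3, and the difference was 0.18 after quantile normalization. With the block MTOR passed in Aa high at 48 h (0.23, adjusted p = 0.0274).

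RPTOR, which recruits the substrates of mTORC1, moved more. In Ota high at 24 h it was 3.96, 4.26 and 3.90 in treated cultures, against 6.62, 6.32 and 6.32 in controls, a difference of -2.38 on the log2 scale (SE 0.25, adjusted p = 5.46e-07). In Aa high it differed by -1.25 at 24 h and by -1.60 at 48 h. At 48 h it was 4.58, 4.24 and 4.30 in treated cultures, against 5.94, 5.73 and 6.26 in controls. Aa low at 24 h went the other way, at 0.57 (adjusted p = 0.0236), a call lost without Aa low replicate 1 or 3 or control replicate 2.

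High and low dose differed in 21 of 80 tests of a member, in comparisons that together called 24.6% of all gene tests. These calls were in Aa (5 at 24 h and 6 at 48 h) and in Ota (4 at 24 h and 6 at 72 h), where 58.9% and 57.8% of all genes were called. Kbr called 0 members at 24 and 48 h, with 0.0544% and 8.03% of genes, and Nnm 0 members and 0% of genes at both times. In PPP3CB the high dose of Ota differed from the low dose by -4.18 at 24 h (adjusted p = 1.18e-09), at 5.57, 5.32 and 6.10 at the high dose, against 9.88, 9.74 and 9.91 at the low dose. With the block the doses of Aa at 24 h also differed in PPIF (0.54, adjusted p = 0.000318) and MTOR (0.25, adjusted p = 0.0338).

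The change at the later time differed from that at the earlier time in 18 of 100 tests of a member, in comparisons that together called 14.6% of all gene tests. Ota high had 6 of these calls (53.4% of all genes called), CdCl 5 (30.4%), Di 5 (33.6%) and Aa high 2 (18.8%). Aa low (1.31% of genes), Kbr high (1.89%) and Ota low (6.3%) had 0, as did Kbr low and Nnm at both doses, with 0% of genes. PPIF and RCAN1 in Di passed at 48 h and not at 12 h, with differences between the changes of 2.82 and 1.38, whereas RCAN1 in CdCl was less raised at 48 h than at 12 h, by -1.29. With the block the difference between times also passed for FKBP5 (-0.75, adjusted p = 0.00773) and PPP3CB (-0.41, 0.0253) in Aa high, for PPIF in Aa low (0.67, 0.00716) and for PPP3CB in Kbr high (-1.08, 0.0204).

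The pathway lists were called in these compounds at shares on both sides of the 34.3% of all gene tests. Over the 20 comparisons 30.7% of 264 tests of cyclophilins passed (47 higher, 34 lower), 40% of 220 in the FKBP family (37 and 51), 27.5% of 120 in the calcineurin list (17 and 16) and 32% of 200 in the NFAT list (27 and 37). Of the mTOR lists, 35.4% of 472 tests of regulators (61 and 106) and 30% of 280 of substrates (41 and 43) passed, and of the glucocorticoid list 43.4% of 228 (63 and 36). The genes named next were taken because they were called most often in their lists. DDIT4 was called lower in 13 of 20 comparisons and DEPTOR lower in 12 and higher in 1, each with its largest change in Ota high at 24 h (-4.20 and -3.36). DUSP1, a phosphatase that glucocorticoids induce, was higher in 13 and lower in 1, and CEBPD, a transcription factor, higher in 1 and lower in 10. FKBP2 was lower in 10 and higher in 3, FKBP14 lower in 9 and higher in 3, and PPIH, a spliceosomal cyclophilin, higher in 11 and lower in 1. RCAN3 was called higher in 5 and lower in 4, with its largest change in Kbr high at 48 h (-2.93). The other genes called most often in their lists were PPIL3 (10 calls), AKAP1 (8), NFATC2IP (11), DYRK1A (8), LPIN1 (12) and EIF4B (9), none of them in 1 direction only.

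Across the 26 comparisons, which share controls within a family and so are not independent, the changes most like those of RCAN1 among 10523 genes were those of RAB23 and USP53 (Pearson r of 0.929 each), ABHD5 and LRIF1 (0.838 each) and HSPBAP1 (0.834). USP53 differed by 2.39 in CdCl at 12 h, by 2.16 in Di at 48 h and by -1.49 in Ra at 48 h. For FKBP5 they were SSBP3 (0.886), MAP3K21 (0.867), MANEA (0.857), PANK1 (0.852) and FZD6 (0.848). Among the members themselves the closest pair was PPIF and RCAN1 (r of 0.657). These values describe the table and carry no test.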

How the data were processed

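Gene expression was measured in HK-2 cells on Affymetrix arrays of 54675 probe sets. The deposited log2 values of all arrays were normalized together by the authors with GCRMA, per the submitters' processing notes and the series text; the program's version is not given in the sources used here. Background adjustment by GCRMA pulls dim probe sets to a common low level, so changes below a log2 level of about 4 are compressed. Arrays give no read depth, and 3 arrays a group limit the precision. No columns were without a sample (0), no 2 arrays were the same (highest correlation 0.998), and array medians ran from 2.87 to 3.13.

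The platform annotation gave 41091 probe sets 1 gene symbol, 1801 several and 11721 none, and 62 were array controls. Where several probe sets had 1 symbol, the brightest on average stood for the gene. Genes above a log2 level of 4 on at least 3 arrays of a family were tested. A family held the arrays that share controls, 6 in all (CsA; Fk and Ra; CdCl and Di; Aa; Kbr and Nnm; Ota), and was fitted with limma 3.58.1 (R 4.3.3), with a mean per group, empirical Bayes variances and Benjamini-Hochberg adjustment over all genes tested in a comparison. All adjusted p-values are limma's, two-sided, and called means under 0.05. Differences between the CsA change and the Fk or Ra change came from 1 joint fit of both families. Tables and figures used Python 3.11.15, pandas 2.3.3 and matplotlib 3.10.9. The fit was tested on simulated data.

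Replicate numbers come from the titles. Deviations of same-numbered arrays from their group means correlated at 0.534 to 0.931 in the CsA family, at 0.28 to 0.537 in Aa and at 0.139 to 0.673 in Kbr and Nnm, which were taken as paired. Not every pair passed a correlation of 0.1 in Ota (-0.0542 to 0.409, median 0.194), Fk and Ra (-0.176 to 0.76, median 0.202) or CdCl and Di (-0.274 to 0.16, median -0.0485), which were not taken as paired. Blocked values are given where they change a call, and for RCAN1, PPIF and FKBP5 in CsA also where they do not. For Aa, Kbr and Nnm and for the CsA controls over time, blocked calls of a member stand without the share of all genes called in that fit. They are therefore not read as results about the members. Nothing in the labels says how separate the biological replicates were, so p-values measure only the spread between these cultures.

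The members and the 7 pathway lists (106 genes, 99 in the table) were chosen with earlier results of these data known. Genes beyond the members were named by rule: up to 3 called genes of a list with the largest change in each CsA, Fk or Ra comparison, up to 2 genes of a list called most often in the other compounds, and the 5 genes most like RCAN1 and FKBP5. The same rule was applied to the blocked fit of CsA at 48 h.

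Alternatives were no filter, a filter at a log2 level of 6, the mean of all probe sets, no _x_at or _s_at probe sets, quantile normalization, a variance trend, 1 fit of all arrays, a fit of only the arrays compared, the replicate block and leaving out each array. Chosen after seeing the data were each other probe set of a member, the changes with time in the other compounds, and the pathway lists and other probe sets in Ra at 48 h without Ra replicate 2. Promoter sequences are RefSeq's, on GRCh38.p14.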

Additional observations from a re-analysis of the deposited data

Results flagged for a closer look

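These results stand here because the difference between 2 changes was itself tested and passed (adjusted p under 0.05, limma). At 48 h the Fk change minus the Ra change was 1.81 for PPP3R1 and 1.19 for RCAN1, and the CsA change minus the Ra change was 2.20 for PPP3R1 and 1.45 for RCAN1. All 4 rest on Ra at 48 h, and each lost its call without Ra replicate 2.

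In CdCl, where 30.4% of all genes had a change at 48 h that differed from that at 12 h, 5 members did. RCAN1 differed by -1.29 (0.87 at 48 h, against 2.16 at 12 h, adjusted p = 7.27e-06), PPP3CB by 1.08 (0.49, against -0.60), MTOR by 0.51 (0.084, against -0.42), FKBP1A by 0.44 (0.35, against -0.095) and FKBP5 by -0.60 (-1.79, against -1.20). In Di (33.6% of all genes) 5 members did. PPIF differed by 2.82 (2.94 at 48 h, against 0.12 at 12 h, adjusted p = 5.39e-11), RCAN1 by 1.38 (1.30, against -0.078, adjusted p = 1.22e-06), FKBP5 by -1.05 (-1.14, against -0.091), PPP3CB by 0.61 (0.42, against -0.19) and FKBP1A by -0.28 (-0.22, against 0.057). RCAN1 in CdCl was thus higher at the earlier time and in Di at the later one. By the second PPP3CB probe set, 209817_at, CdCl averaged 9.00 at 12 h, against 9.22 in controls, and 8.67 at 48 h, against 8.73. Di averaged 8.87 and 8.85 in that order, against the same controls. The differences between times by that probe set were not tested.

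In Ota high, where 53.4% of all genes differed, 6 members did. PPP3CB differed by 2.62 (-1.27 at 72 h, against -3.89 at 24 h), PPIF by 1.94 (1.71, against -0.23), PPP3R1 by 1.87 (1.38, against -0.49), RCAN1 by 1.43 (0.82, against -0.61), RPTOR by 1.40 (-0.98, against -2.38) and PPP3CA by 0.61 (0.44, against -0.17). The arrays of Ota high at 24 h had the low upper quartiles given in the report, whose part in these differences was not tested. By the second PPP3CB probe set, 209817_at, Ota high averaged 4.20 at 24 h, against 9.45 in controls. At 72 h it averaged 3.40, against 8.76, so that probe set came no closer to its controls. Both Ota high means lay near the level of 4 used as the filter, and this difference between times was not tested. The RCAN1 value was lost (adjusted p of up to 0.102) in 12 of 20 alternatives, among them leaving out any 1 control array or any 1 array of Ota high at 72 h. In Aa high (18.8% of all genes) PPP3R1 differed by 1.11 (1.95 at 48 h, against 0.83 at 24 h) and PPIF by 1.02 (1.67, against 0.65). Of these differences between times, PPP3R1 in Aa high lost its call in 11 of 21 alternatives and changed sign in 1, and PPIF in Aa high lost it in 6 of 21. PPP3CA in Ota high lost it in 9 of 20, FKBP1A in Di in 6 of 21 and FKBP5 in CdCl in 4 of 21. Kbr, Nnm, Aa low and Ota low had no member among them, with 0% to 6.3% of all genes.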

How the results depend on the processing

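With 3 arrays a group, differences of the width of the intervals given could not be resolved, and dim probe sets (PPP3R1, RPTOR) are the least certain. In Ra at 48 h, 2 members were called, against 0 with no filter, without _x_at and _s_at probe sets or in a fit of only the arrays compared, 3 with quantile normalization or in the fit of all arrays, where PPP3CB joined, and 0 to 3 with 1 array left out. Fk against Ra at 48 h (2) gave 0 under the same 3 settings, 1 with the mean of probe sets or quantile normalization, and 0 to 2 with 1 array left out. The CsA change against the Ra change at 48 h (2) gave 1 with no filter or the mean, 0 without _x_at and _s_at probe sets or with only the arrays compared, and 0 to 3 with 1 array left out. CsA at 48 h (0) gave 1 member in the fit of all arrays and 1 with the replicate block. The Ra change at 48 h against 12 h (0) gave 2 in the fit of all arrays and 0 to 1 with 1 array left out. The genes called also moved by setting, so these shifts are not results about the members. Ra at 48 h called 1016 genes, against 473 with no filter, 0 with only the arrays compared and 3370 in the fit of all arrays. CsA at 48 h called 1, against 596 in the fit of all arrays. By setting, Fk against Ra at 48 h called 0 to 3188 genes and the CsA change against the Ra change 1 to 3058. The replicate block took the genes called in CsA at 48 h to 2484, against 1, and added 5 member calls in Aa and 9 in Kbr and Nnm, losing 0. The share of all genes called in the blocked fits of Aa and of Kbr and Nnm is not given here. The added calls are therefore not results about the members. Controls at 48 against 12 h (2) gave 0 with no filter, 1 with the mean or without _x_at and _s_at, 4 in the fit of all arrays, 5 with the replicate block and 1 to 2 with 1 array left out. The 61 calls of the other compounds ranged over 42 to 76 by setting and 56 to 66 by array, the 21 dose calls over 14 to 23 and 18 to 25, and the 18 calls of later against earlier times over 12 to 22 and 16 to 20. The other counts stayed at 0 with 1 array left out. Sign changes came from other probe sets in 17 of 28 results. FKBP1A by 210187_at gave -1.22, -1.43, -1.20 and -1.63 in Aa (high at 24 and 48 h, low at 24 and 48 h), 0.94 in CdCl at 12 h, 0.55 in Kbr high at 48 h, -1.07 in Ota high at 72 h and -1.80 in Ota low at 24 h; in CdCl at 12 h 214119_s_at gave 0.35 and 210186_s_at 0.48. PPP3CB by 209817_at gave -1.14 in Aa high at 24 h, -0.061 in CdCl at 48 h, -0.71 in Nnm high at 24 h and -2.86 in Ota low at 24 h. PPP3R1 by 204506_at gave -0.16 in Aa high at 48 h, FKBP5 by 204560_at 0.67 in Di at 12 h and PPP3CA by 202425_x_at 0.85 in Ota high at 24 h. The mean of probe sets gave FKBP1A -0.099 (Aa high 48 h), 0.42 (CdCl 12 h) and -0.42 (Ota low 24 h), and PPP3CB -0.57 (Aa high 24 h), -1.28 (Ota low 24 h) and -0.36 (Aa high against low 24 h). Without _x_at and _s_at probe sets PPP3R1 was -0.16 (Aa high 48 h), -0.30 (Aa high, 48 against 24 h) and -0.0089 (Ota high, 72 against 24 h). Quantile normalization gave MTOR 0.18 (Ota high 24 h) and 0.10 (Ota high against low 24 h). The cause of these changes was not tested.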
